A study of Mus musculus with 4 samples.

Results

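The nuclear-encoded subunits of the respiratory chain and of the mitochondrial ATP synthase were followed in mouse embryonic fibroblasts with and without PTIP. They were taken by symbol: the Nduf subunits of complex I other than the Ndufaf assembly factors, Sdha to Sdhd of complex II, the Uqcr genes and Cyc1 of complex III, the Cox4 to Cox8 genes of complex IV and the Atp5 genes of complex V. Of 18193 genes on the arrays 82 were members, with 33 in complex I, 4 in complex II, 9 in complex III, 19 in complex IV and 17 in complex V. Ndufa4 and Ndufa4l2 were counted with complex IV, where the Ndufa4 protein sits. Each gene was read from its brightest probe set that carried only 1 symbol, and 76 members lay above the level filter, a signal of 47.68, and were tested. The 6 others were Ndufb4 and the complex IV forms Cox6b2, Cox7a1, Cox7b2, Cox8b and Ndufa4l2. RefSeq lists 88 protein-coding symbols that match the rule, and those without such a probe set were not analysed here.

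PTIP, encoded by Paxip1, is a subunit of the MLL3/MLL4 histone methyltransferase complexes, and the series asked which genes it regulates. The cells were immortalized embryonic fibroblasts with both Paxip1 alleles floxed (PTIP flox/flox). All had been infected with a retrovirus and passed through puromycin selection in DMEM with fetal bovine serum; the virus carried Cre recombinase in the PTIP -/- cells and vector alone in the PTIP +/+ cells. There were 2 RNAs of each genotype, numbered 1 and 2, on 4 Affymetrix arrays, and it is not stated what a number stands for, so p-values measure only the spread between these RNAs, which may be technical. Paxip1 had signals of 43.5 and 74.6 without PTIP against 1029.5 and 1040.1 with it, a log2 difference of -4.18 ± 0.36 (SE, n = 2 per genotype), though its limma adjusted p was 0.999. The sources used here do not say whether this probe set lies in the floxed stretch. Below, the signals of a genotype are given for number 1 and then number 2, and every difference is PTIP -/- minus PTIP +/+ on the log2 scale.

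Complex I takes electrons from NADH and complex II from succinate. Both pass them through ubiquinone to complex III, and from there cytochrome c carries them to complex IV, which reduces oxygen. Complexes I, III and IV pump protons, and complex V uses the proton gradient to make ATP. Some other subunits come from mitochondrial DNA, whereas the subunits followed here are encoded in the nucleus, made in the cytosol and imported. The promoters of many of them are known to hold sites for NRF1, the ETS-family factor GABP and YY1.

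Promoters are shown first, for members on which later results turn. RefSeq windows on GRCm38.p6, 250 bases before to 50 after the start, were found for 66 of the 82 members, with 71 windows in all. Matches were sought on both strands to GCGCA and GCGC with any 1 base between them for NRF1, CGGAAGT for ETS factors and AGATGGC for YY1. The first stood in 22.5% of the member windows and in 4.60% of all 32851 windows, the second in 15.5% and 6.42%, and the third in 14.1% and 6.40%. The median number of CG pairs was 19 in member windows and 7 in all windows. A match is only a run of letters. Tested members with and without a match had median differences between the genotypes of -0.06 and -0.07 for NRF1, -0.07 and -0.08 for ETS and -0.04 and -0.08 for YY1. Stretches from 250 bases before the start to 20 after it follow for Ndufs8, Cox6a1 and Sdhd, all on the minus strand, at chr19:3912755-3913024, chr5:115348939-115349208 and chr9:50603830-50604099, with the matches in capitals. Ndufs8 holds an ETS match, Cox6a1 holds 2 NRF1 matches and Sdhd holds 1. They are shown because Ndufs8 was among the members lowest in PTIP -/-, at -0.33, whereas Sdhd, at -0.09, and Cox6a1, at -0.04, lay near the middle of the members.
Ndufs8: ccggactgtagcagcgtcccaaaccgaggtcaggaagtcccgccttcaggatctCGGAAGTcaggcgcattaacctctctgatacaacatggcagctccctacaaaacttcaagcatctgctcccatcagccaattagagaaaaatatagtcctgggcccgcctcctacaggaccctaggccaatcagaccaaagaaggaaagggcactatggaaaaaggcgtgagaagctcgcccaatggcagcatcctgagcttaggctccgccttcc
Cox6a1: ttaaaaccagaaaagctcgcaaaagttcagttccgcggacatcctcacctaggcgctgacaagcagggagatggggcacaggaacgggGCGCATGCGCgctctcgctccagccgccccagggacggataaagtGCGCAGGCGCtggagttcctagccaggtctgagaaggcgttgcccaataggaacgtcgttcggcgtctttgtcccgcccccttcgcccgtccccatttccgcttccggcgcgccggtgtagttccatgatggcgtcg
Sdhd: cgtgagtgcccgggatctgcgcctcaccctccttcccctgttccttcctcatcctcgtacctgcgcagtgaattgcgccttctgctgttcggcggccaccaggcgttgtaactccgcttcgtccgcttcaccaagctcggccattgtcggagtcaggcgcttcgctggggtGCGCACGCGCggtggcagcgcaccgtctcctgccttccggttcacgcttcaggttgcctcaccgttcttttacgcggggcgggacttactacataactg
The whole windows of Ndufb2 and Atp5e, also among the lowest members, held none of the 3 motifs. The window of Ndufa6, the highest member of complex I, held an NRF1 match.

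No member passed the test. The adjusted p from limma over the 12509 genes tested was 0.9988 for each of the 76 members, and the share of all genes called was 0.0%. At an unadjusted p under 0.05 limma gave no member, where 2.29% of all genes tested (286) lay; the smallest member p was 0.147, for Ndufb2. Differences ran from -0.44 for Ndufb2 to 0.42 for Uqcrh, and the widest was 1.36-fold. The interquartile range of the members was 0.18, against 0.48 for all genes tested and 0.35 for the 4361 genes with a mean signal of at least 1000, a level chosen after the data had been seen. Not 1 tested member differed by 1.5-fold, a size reached by 16.5% of all genes and by 8.39% of those bright genes. The precision was low. The half-width of the 95% interval of a member's difference had a median of 0.71, or 1.64-fold, all 76 intervals included 0, and 24 reached a 2-fold difference, so that changes of such size are not excluded for these genes.

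**Figure D1:**
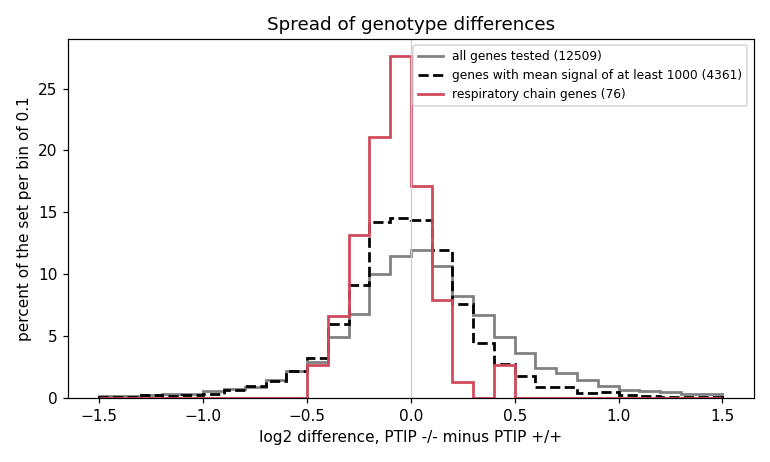
Histogram of the log2 difference, PTIP -/- minus PTIP +/+, in bins of 0.1, as the percent of each set. The respiratory chain genes (red, 76) lie between -0.44 and 0.42, within the broader outlines of all genes tested (grey, 12509) and of genes with a mean signal of at least 1000 (dashed, 4361).

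Most members lay slightly lower in PTIP -/-. The difference was below 0 for 54 of 76 members and above 0 for 22, where 43.9% of all genes and 53.7% of the bright genes lay below 0. The median was -0.07, beside 0.05 over all genes and -0.03 over the bright ones. This split depended on the scaling: with quantile normalization 43 of 76 members lay lower (49.3% of all genes), and with each array centred on its median 73 of 76 did (64.5%). Relative to the median of all genes the members' median was -0.12 as deposited and -0.02 with quantile normalization. Centring shifts the differences of all genes alike, so that it cannot change this value. Without the second PTIP -/- array 42 members lay lower, and without the second PTIP +/+ array 61 did. Both PTIP -/- arrays read below both PTIP +/+ arrays for 24 members, against 12.1% of all genes, and above them for 3 members, Ndufa6, Sdha and Atp5pb, against 16.6%. With quantile normalization these counts were 12 and 8, where 14.0% of all genes lay below and 14.0% above. With centring they were 41 and 0, where 22.5% of all genes lay below and 7.43% above. Such shares were not taken for the bright genes alone.

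Within the replicate numbers the same lean was seen in both, with little likeness gene by gene. Number 1 gave the members a median of -0.07, number 2 one of -0.09. Of the 76, 38 were lower in both numbers, as were 25.8% of all genes and 36.6% of the bright genes. Another 11 were higher in both, as were 33.9% of all genes and 1191 of the 4361 bright genes. The other 27 went opposite ways. Across the 76 genes the difference in number 1 and that in number 2 had a Pearson r of 0.20 and a Spearman rho of 0.20, and over all genes these were 0.24 and 0.25; genes are not independent replicates. A difference of at least 1.2-fold downward in both numbers was found for 4 tested members, Ndufb2, Ndufs8, Atp5e and Cox4i2, where 7.86% of all genes reached it. No tested member reached 1.2-fold upward in both, where 12.7% of all genes did. None of the tested members reached 2-fold in even 1 number, where 16.1% of all genes did. These shares were smaller for genes of like brightness. Of the 4361 bright genes, 368 reached 1.2-fold downward in both numbers, 245 reached it upward in both, and 300 reached 2-fold in at least 1 number.

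**Figure D2:**
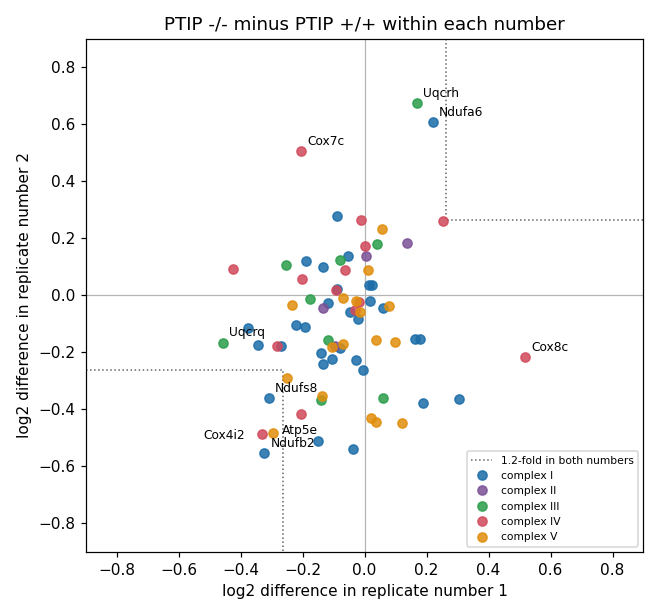
Each point is 1 of the 76 members, placed by its log2 difference (PTIP -/- minus PTIP +/+) within replicate number 1 (horizontal) and within number 2 (vertical), coloured by complex. Dotted corners mark 1.2-fold in both numbers, and 4 members lie in the lower left corner and none in the upper right.

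The numbers themselves differed more than the genotypes for 44 of 76 members (57.9%, against 63.4% of all genes). Number 2 read lower than number 1 for 51 members, including 15 of 17 in complex V. Uqcr11, a small subunit of complex III, read 6979.5 and 4120.4 against 8316.6 and 3825.5, so that its numbers differed 1.92-fold and its genotypes by -0.07. The numbers differed 1.72-fold for Ndufs7, 1.72-fold for Ndufb1 and 1.62-fold for Atp5md.

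In complex I, 24 of 32 tested members were lower and 8 higher, with a median of -0.08, or -0.08 within number 1 and -0.13 within number 2. Quantile normalization left 21 of 32 lower and median centring 31, and the median stayed between -0.11 and -0.07 with each array left out in turn. All 6 tested core subunits, which form the arm that takes electrons from NADH to ubiquinone, lay below 0, from -0.33 to -0.03, and 5 of them did so with quantile normalization. Ndufs8, a core iron-sulfur protein, read 5400.2 and 4870.4 against 6689.0 and 6255.4, a difference of -0.33 ± 0.25 (SE) with adjusted p = 0.999 by limma. The genotypes did not overlap on this probe set, but the probe set is of the kind that can share probes with other sequences. Its other probe sets ran from -0.40 to 0.36, and the one at 0.36 read 6833.1 and 5076.1 against 6299.4 and 3356.5.

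The accessory subunits, which surround the core and many of which its assembly needs, are taken by family. Of the Ndufb and Ndufc subunits, which belong to the membrane arm, 10 of 12 were lower with a median of -0.16 (9 with quantile normalization); of the Ndufa subunits, 7 of 11 were lower with a median of -0.07. Ndufb2 read 4946.4 and 4577.5 against 6192.0 and 6723.2, which is -0.44 ± 0.25 (SE; adjusted p = 0.999 by limma), with both PTIP -/- arrays below both others. A second probe set of Ndufb2 above the filter gave -0.19, and a dim one, with a mean below it, gave 1.22 on 51.5 and 89.8 against 28.3 and 30.2. Ndufa6, which anchors the mitochondrial acyl carrier protein in the complex, went the other way at 2600.6 and 3407.6 against 2233.1 and 2236.2, a difference of 0.41 ± 0.28 (SE; adjusted p = 0.999 by limma), of which 0.22 was in number 1 and 0.61 in number 2. Ndufa12 read 12322.3 and 7792.6 against 12564.5 and 9115.6, so that its numbers stood further apart than its genotypes.

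**Figure D3:**
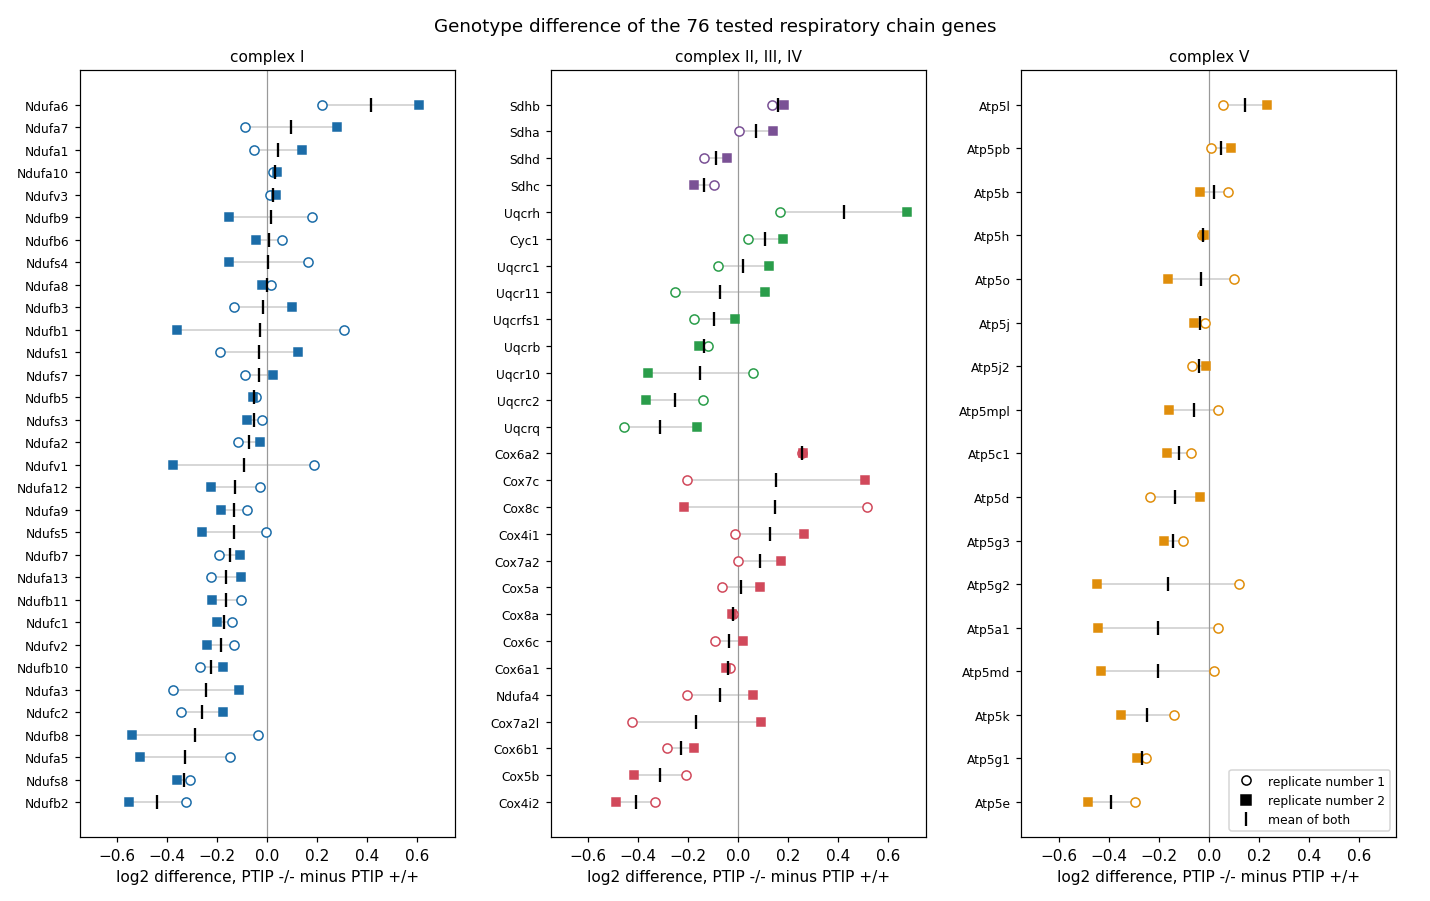
Log2 difference of each of the 76 tested members, PTIP -/- minus PTIP +/+, within replicate number 1 (open circles), within number 2 (squares) and as the mean of both (black ticks), by complex. Most ticks lie just left of 0, and for many genes the numbers lie on opposite sides of 0.

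Complex II, which is also an enzyme of the TCA cycle, had 2 members on each side of 0 and a median of -0.01. The catalytic pair was higher, Sdha, the flavoprotein, by 0.07 and Sdhb, the iron-sulfur protein, by 0.16 ± 0.36 (SE) on 6471.7 and 4478.3 against 5884.5 and 3943.3. The membrane anchors were lower, Sdhd by -0.09 and Sdhc by -0.14 on 2461.5 and 3089.1 against 2632.7 and 3492.6. The genotypes overlapped for Sdhb and Sdhc. They did not for Sdha, at 4244.7 and 4347.4 against 4232.7 and 3948.4, or for Sdhd, at 4451.1 and 4573.0 against 4889.4 and 4713.1. None of the 4 passed the test, and with median centring all 4 were below 0. Without the first PTIP +/+ array the median of the complex was 0.03.

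In complex III 6 of 9 members were lower (5 with quantile normalization and 8 with centring), with a median of -0.10, or -0.12 within number 1 and -0.01 within number 2, and without the second PTIP -/- array the median was 0.03. The core and catalytic subunits Uqcrc1, Uqcrc2, Cyc1 and Uqcrfs1 split evenly about 0, between -0.25 and 0.11, though all 4 were below it with centring. Uqcrq, a small subunit, was the lowest at 4151.6 and 4335.3 against 5700.0 and 4861.8, or -0.31 ± 0.25 (SE; adjusted p = 0.999 by limma), with no overlap of the genotypes. Its other probe sets were dim and reached 0.81, on 111.7 and 74.2 against 81.4 and 32.9. Uqcrh, the hinge protein that helps cytochrome c1 meet cytochrome c, was the highest at 6828.2 and 5489.4 against 6071.0 and 3436.1, or 0.42 ± 0.39 (SE; adjusted p = 0.999 by limma). These arrays overlapped, leaving out one array at a time gave 0.01 to 0.83, and a second probe set gave 0.05. The probe sets used for Uqcrq and Uqcrh are of the kind shared by several transcripts. Uqcrb read 20227.8 and 21535.3 against 21958.2 and 24012.6, a difference of -0.14 where its other probe set gave 0.15.

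Complex IV has subunits that exist as a common form and as a form of particular tissues. Over its 14 tested members 8 were lower and 6 higher (5 lower with quantile normalization and 13 with centring), with a median of -0.03, or -0.08 within number 1 and 0.04 within number 2, and 0.08 without the first PTIP +/+ array. The 6 common forms Cox4i1, Cox6a1, Cox6b1, Cox7a2, Cox8a and Ndufa4 had differences from -0.23 to 0.13 and a median of -0.03, which was 0.08 with quantile normalization and 0.05 without the first PTIP +/+ array. Cox6a1 read 19542.0 and 19925.0 against 19960.4 and 20625.7, a difference of -0.04 that became 0.08 with quantile normalization. Cox6b1, which joins the dimer on the outer face, read 12270.7 and 13604.6 against 14930.3 and 15379.9, or -0.23 ± 0.25 (SE), with no overlap. Cox4i1 differed by 0.13, Cox7a2 by 0.09, Cox8a by -0.02 and Ndufa4 by -0.07. Cox4i1 and Cox7a2 were below 0 with median centring, at -0.05 and -0.09, and Cox8a and Ndufa4 were above it with quantile normalization, at 0.07 and 0.0046.

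Of the forms of muscle, lung and testis, Cox4i2, Cox6a2 and Cox8c lay above the filter and Cox6b2, Cox7a1, Cox7b2 and Cox8b below it. Cox4i2, the lung form, read 62.3 and 50.2 against 78.4 and 70.4, just above the filter, and differed by -0.41 ± 0.27 (SE; adjusted p = 0.999 by limma). Cox6a2, the heart and skeletal muscle form, read 180.5 and 217.7 against 151.4 and 181.7, a difference of 0.26 ± 0.27 (SE) that was 0.25 and 0.26 within the numbers and -0.11 as the mean of its probe sets. Cox8c, the testis form, read 923.9 and 544.6 against 645.7 and 633.3, or 0.52 in number 1 and -0.22 in number 2, and its second probe set gave -0.43. Below the filter, no fold is given. The muscle form Cox7a1 read 39.0 and 18.3 in PTIP -/- cells, then 31.1 and 2.8 in the others. Cox8b, also of muscle, read 6.6 and 7.1 and then 53.3 and 3.5. The testis forms read 6.5 to 29.2 for Cox6b2 and 1.5 to 22.1 for Cox7b2 over the 4 arrays, and Ndufa4l2, known as a hypoxia-induced gene, read 29.4 to 42.7. Signals of different probe sets are not comparable as amounts, so a bright common form and a dim tissue form show only where each stood against the filter. Cox7a2l, the supercomplex factor that joins complexes III and IV, read 3837.7 and 3306.2 against 5152.0 and 3102.9, a difference of -0.17 that was -0.43 in number 1, 0.09 in number 2 and 0.20 without the first PTIP +/+ array.

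**Figure D4:**
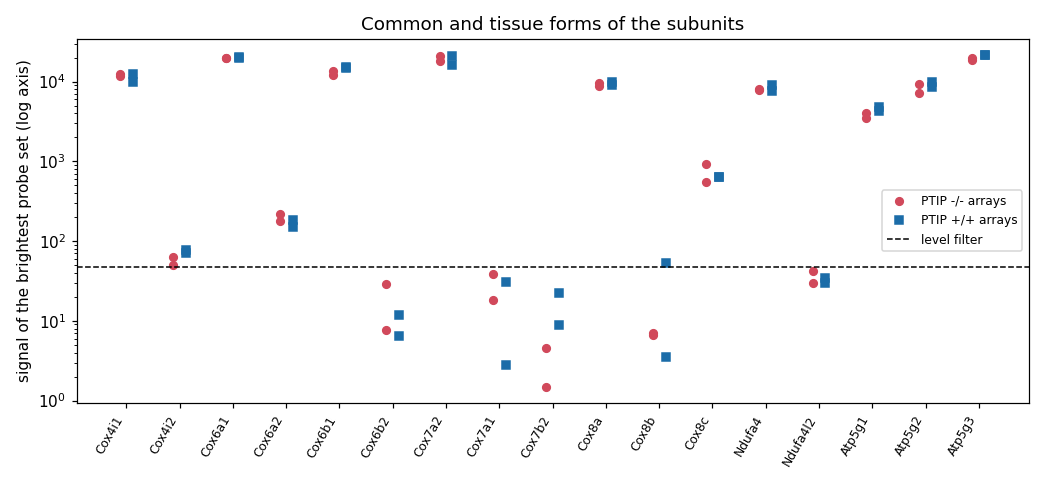
Signal of the brightest probe set (log axis) on the 2 PTIP -/- arrays (circles) and the 2 PTIP +/+ arrays (squares) for subunits with several forms; the dashed line is the filter, 47.68. Cox6b2, Cox7a1, Cox7b2, Cox8b and Ndufa4l2 lie mostly below the line, and levels of different genes are not comparable.

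The promoters of a common and a tissue form are set side by side for the pairs Cox6b1 and Cox6b2 and Cox8a and Cox8b, each a form above the filter and one below it. Each runs from 250 bases before the start to 20 after it on the minus strand of GRCm38.p6, at chr7:30626095-30626364, chr7:4753075-4753344, chr19:7217597-7217866 and chr7:140900427-140900696. The capitals mark an ETS match in both common forms, and no motif was matched in the windows of Cox6b2 and Cox8b. These pairs were chosen after their matches were seen and do not stand for the others. Neither Cox7a2 nor Cox7a1, another pair of this kind, held a match, and the window of the testis form Cox7b2 held a YY1 match. The windows held 17 CG pairs for Cox6b1 and 10 for Cox6b2, and 19 for Cox8a and 2 for Cox8b.
Cox6b1: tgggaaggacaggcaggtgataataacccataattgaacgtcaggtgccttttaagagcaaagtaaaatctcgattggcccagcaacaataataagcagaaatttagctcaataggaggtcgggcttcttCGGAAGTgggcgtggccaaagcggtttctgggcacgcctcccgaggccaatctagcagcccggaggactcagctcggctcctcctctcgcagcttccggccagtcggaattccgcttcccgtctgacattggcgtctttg
Cox6b2: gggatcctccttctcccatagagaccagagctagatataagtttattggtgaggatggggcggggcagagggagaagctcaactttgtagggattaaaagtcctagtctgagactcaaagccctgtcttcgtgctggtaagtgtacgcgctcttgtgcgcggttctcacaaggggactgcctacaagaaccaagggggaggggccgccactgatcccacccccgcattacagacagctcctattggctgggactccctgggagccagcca
Cox8a: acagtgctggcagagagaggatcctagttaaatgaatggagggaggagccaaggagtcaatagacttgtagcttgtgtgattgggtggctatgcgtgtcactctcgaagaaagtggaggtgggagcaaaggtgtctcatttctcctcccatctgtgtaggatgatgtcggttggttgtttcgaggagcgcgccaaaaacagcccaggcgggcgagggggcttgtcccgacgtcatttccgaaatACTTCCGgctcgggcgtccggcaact
Cox8b: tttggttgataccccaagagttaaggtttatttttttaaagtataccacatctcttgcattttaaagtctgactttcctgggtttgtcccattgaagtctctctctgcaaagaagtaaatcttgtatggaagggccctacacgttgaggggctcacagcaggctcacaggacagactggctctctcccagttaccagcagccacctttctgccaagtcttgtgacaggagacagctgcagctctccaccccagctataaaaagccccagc

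Complex V had the lowest median of the complexes as deposited, -0.12, with 14 of 17 members below 0, and the medians were -0.01 in number 1 and -0.16 in number 2. With quantile normalization 10 were lower and the median was -0.02, and with centring all 17 were. The median was 0.04 without the second PTIP -/- array and -0.02 without the first PTIP +/+ array. In the F1 head, where ATP is made, 4 of 5 subunits were lower with a median of -0.14. Atp5e, the epsilon subunit of the central stalk, read 3426.1 and 2829.8 against 4208.5 and 3953.7, or -0.39 ± 0.26 (SE; adjusted p = 0.999 by limma), with -0.30 in number 1, -0.48 in number 2 and no overlap. Its probe set is of the kind shared by several transcripts. Atp5b, the catalytic beta subunit, differed by 0.02.

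Atp5g1, Atp5g2 and Atp5g3 encode the same mature c subunit of the rotating ring with different import sequences, and all 3 were below 0 under each scaling. Atp5g1 read 4068.6 and 3486.7 against 4838.2 and 4259.4, a difference of -0.27 ± 0.26 (SE), and Atp5g3 read 19819.2 and 18785.1 against 21322.7 and 21278.6, a difference of -0.14 ± 0.24 (SE). The genotypes of these genes did not overlap. The mean of both probe sets of Atp5g1 gave 0.72, since the second one read 44.8 and 36.6 against 40.3 and 3.8, below the filter. Atp5g2 read 9326.0 and 7247.7 against 8580.3 and 9890.8, on opposite sides of 0 in the numbers. The 4 subunits of the peripheral stalk, which holds the head still, lay between -0.04 and 0.05, all above 0 with quantile normalization and all below it with centring. Atp5l, a small membrane subunit, was the highest of the complex at 8389.4 and 7198.4 against 8064.4 and 6132.3, a difference of 0.14, which was -0.03 with median centring.

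Different probe sets of a member often gave different signs. Of 45 members with several probe sets above the filter, 22 had differences on both sides of 0, and of 36 with several at a mean signal of at least 1000, 10 did. The median range between the bright probe sets of a gene was 0.12, larger than the members' median of -0.07 in size, and the largest was 0.76, for Ndufs8. Probe sets named as shared or cross-hybridising were used for 16 of 82 members. The probe sets of Ndufb4, at 43.0 and 51.1 against 33.7 and 38.6, and of Cox7c, at 182.6 and 149.8 against 210.6 and 105.4, were dim; the bright ones of these genes carry several symbols and were left out.

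Among related genes, listed with earlier results of these data known, none passed the test either. The complex I assembly factors were lower for 11 of 14 with a median of -0.12 (also 11 with quantile normalization), and those of complexes II to V for 17 of 33 with a median of -0.00 (21 with quantile normalization and 26 with centring). Ndufaf4, an early assembly factor of complex I, read 1297.4 and 1145.2 against 2375.4 and 2068.9, or -0.86 ± 0.26 (SE; unadjusted p = 0.0268 and adjusted p = 0.999 by limma). It was lower 1.82-fold, by -0.87 in number 1 and -0.85 in number 2, and by -0.96 to -0.76 with any 1 array left out. This was a larger difference than that of any tested subunit. Ndufaf4 has 2 probe sets, and the values of the dimmer one are not given here. Cmc2, which acts in complex IV assembly, differed by -0.58.

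Cytochrome c, the acyl carrier protein, inner-membrane carriers and porins were lower for 7 of 9 with a median of -0.05 (4 of 9 with quantile normalization), which was -0.31 without the first PTIP +/+ array. Cycs, cytochrome c itself, read 13397.6 and 10423.0 against 12614.5 and 9747.8, and Ucp3, an uncoupling protein, differed by 0.30. ND5, the only mitochondrially encoded subunit with a named probe set here, read 19634.1 and 15827.8 against 17711.0 and 14804.6, a difference of 0.12 that was -0.06 with median centring. TCA cycle enzymes were lower for 8 of 17 with a median of 0.01, and Idh2 differed by -0.59, of which -1.03 was in number 2. Mitochondrial ribosomal proteins were lower for 59 of 76 (also 59 with quantile normalization) with a median of -0.12, or -0.03 by the mean of each gene's probe sets. Mrps6 read 3501.1 and 2207.0 against 8666.7 and 3150.4, a difference of -0.91. Protein import genes were lower for 14 of 21 with a median of -0.11 (0.04 without the first PTIP +/+ array), and Timm17b differed by -0.57.

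**Figure D5:**
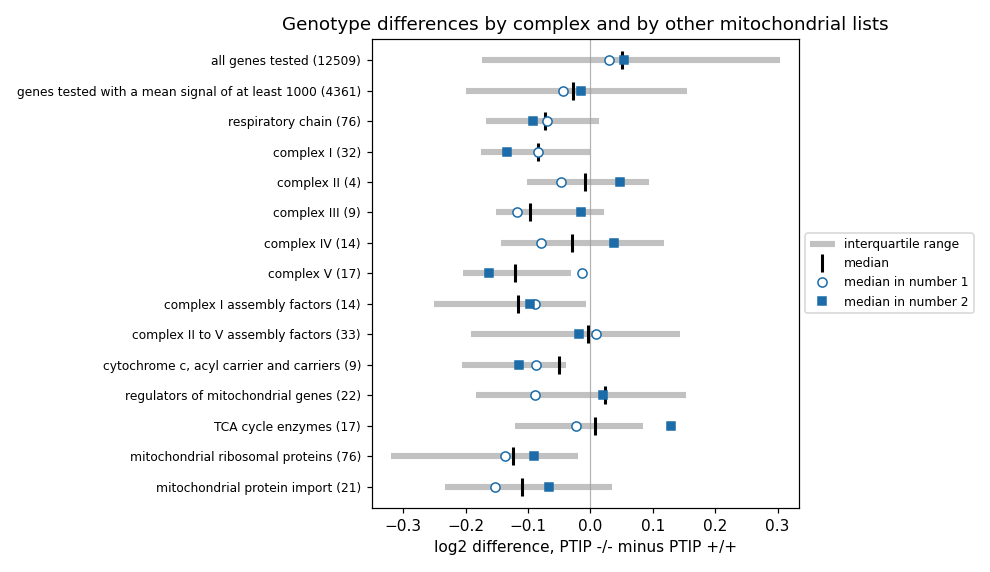
Log2 difference, PTIP -/- minus PTIP +/+, for all genes, the members, each complex and related lists, with the number of tested genes in brackets; grey bars span the interquartile range, ticks are medians, and open circles and squares are the medians within replicate numbers 1 and 2. The bars of the complexes overlap one another.

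The regulators of mitochondrial genes were on both sides, 10 of 22 lower (13 with quantile normalization and 18 with centring) with a median of 0.02, which was 0.17 without the first and -0.20 without the second PTIP +/+ array. Nrf1 read 480.7 and 283.0 against 426.8 and 317.5, a difference of 0.00, Gabpa differed by -0.23, Yy1 by 0.16, Esrra by 0.40 and Tfam by -0.21. Ppargc1b, a coactivator of respiratory genes, read 424.7 and 82.6 against 355.4 and 12.5, or 1.49 ± 1.87 (SE; adjusted p = 0.999 by limma). It was bright in number 1 of both genotypes and dim in number 2, and leaving out the second PTIP +/+ array gave -0.92. Ppargc1a read 103.1 and 77.5 against 40.6 and 3.6, with a mean below the filter.

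All arrays carry the label of fibroblast. Of 10 fibroblast markers 9 lay above the filter, led by Vim at 30992.3 and 33293.8 against 31040.7 and 39291.8. The filter passed 12509 of all 18193 genes, so that such counts say little of cell type. The summed signal of the 10 markers was 155048.6 to 173668.0 in PTIP -/- and 180949.0 to 188998.1 in PTIP +/+. It was thus lower in PTIP -/-, as most members were, and its part in the members' differences was not tested. Such a sum is weighted to the brightest markers. Single markers went both ways, with Col1a1 at -0.37 and Col3a1 at 0.16, and those above the filter had a median of -0.18. Thy1 and Pdgfra, both fibroblast surface markers, split by number instead: Thy1 read 14822.9 and 1500.7 against 16080.1 and 239.2, and Pdgfra 3563.4 and 174.2 against 5010.1 and 583.2. Fewer markers of other cells were read. Above the filter were, with the one of the highest mean log2 signal named, 2 of 12 for muscle (Ckm, at 162.0 and 164.4 against 123.1 and 85.2), 2 of 5 for brown fat (Prdm16), 2 of 6 for testis germ cells (Acr), 4 of 6 for macrophages (Csf1r), 3 of 5 for epithelium (Epcam) and 2 of 4 for endothelium (Kdr). The summed muscle signal was 690.5 to 815.5 in PTIP -/- and 365.4 to 1263.8 in PTIP +/+, and the summed testis signal 230.9 to 615.6 and 176.0 to 598.2, so that both overlapped. Both sums hold genes that split by number: Tnnt2 of muscle read 299.5 and 20.5 against 884.5 and 11.3, and Ddx4 of germ cells 9.0 and 473.7 against 4.0 and 390.5. The summed epithelial signal did not overlap, at 553.2 to 802.5 in PTIP -/- and 455.1 to 549.8 in PTIP +/+. Sums for brown fat, macrophages and endothelium did overlap. The part of these markers in the members' values was not tested. In bulk RNA, fewer cells of a type and less RNA per cell cannot be told apart. With 2 arrays a genotype an exact permutation test cannot go below p = 0.333 (two-sided), and only the fit across all genes was used.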

How the data were processed

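The deposited values, 1 table of array intensities for 45101 probe sets on 4 arrays, are on a linear scale. RMA is named in the submitters' processing notes, without a version, yet the intensities are not what RMA usually gives: they are linear, hold a 0, and have a mean of about 497 on each array after trimming 2% at each end. How background was corrected and probes were summarised is not stated in those notes.

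The 0 was replaced by 0.1, values were taken to log2, and 64 control probe sets were left out. Symbols came from the platform annotation, and 34945 probe sets with 1 symbol were used. The brightest stood for its gene, and 12509 genes whose mean log2 signal reached the 40th percentile (a signal of 47.68) were tested with limma 3.58.1 in R 4.3.3, without covariates and with 2 residual degrees of freedom, adjusted by Benjamini-Hochberg over all of them. Between 34.1% and 40.6% of probe sets per array were below that level. The fit was tested on simulated data.

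The members and lists were chosen with earlier results of these data known. Named genes are Paxip1, the forms with tissue partners, the brightest, highest and lowest member of each complex, members at least 1.2-fold different the same way in both numbers, the largest difference of each other list and the brightest marker of each cell type; other names were chosen after their values were seen. Alternatives were quantile normalization, median centring, a filter at the 60th percentile or none at all, an average over each gene's probe sets, a variance trend with robust moderation, the replicate number as a block, signals raised to the filter, and each array left out.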

Additional observations from a re-analysis of the deposited data

How the results depend on the processing

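With 2 arrays a genotype limma called 0 of all genes as deposited and under each alternative, Paxip1 at 18.2-fold included, so that the lack of calls among members and related genes says nothing about their stability. The members' median was -0.10 to -0.02 and their number below 0 was 42 to 61 with 1 array left out, and no alternative gave a median above 0.

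Quantile normalization moved the median of complex V to -0.019 and of the common forms of complex IV to 0.075. It turned the sign of Cox6a1 (0.082), Cox8a (0.068), Ndufa4 (0.0046), Uqcrb (0.0008), Vim (0.033), Acr (-0.14) and Csf1r (-0.081). Median centring shifts the difference of every gene by the same amount and took the median of all genes to -0.13. Its medians were -0.25 for all members, -0.26 for complex I, -0.19 for II, -0.21 for IV, -0.30 for V and -0.21 for the common forms. It gave -0.29 for complex I assembly, -0.18 for assembly of complexes II to V, -0.23 for carriers, -0.15 for regulators, -0.17 for TCA enzymes and -0.30 for mitochondrial ribosomal proteins. Its turned signs were Cox4i1 (-0.050), Cox7a2 (-0.091), Cox8c (-0.028), Sdhb (-0.017), Atp5l (-0.034), ND5 (-0.055), Acr (-0.14) and Csf1r (-0.15). Averaging all probe sets of each gene moved mitochondrial ribosomal proteins to -0.032 and turned Cox6a2 (-0.11), Cox8a (0.13), Cox8c (-0.14), Atp5g1 (0.72), Ndufa12 (0.088), Ndufb2 (0.20), Uqcrb (0.0051), Uqcrq (0.19), Ucp3 (-0.20), Vim (0.054) and Ckm (-0.32). The changes with centring are all that 1 shift, and the cause of those with quantile normalization and averaging was not tested.

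With each array left out in turn, complex V ran from -0.20 to 0.040, assembly of complexes II to V from -0.13 to 0.095, carriers from -0.31 to -0.094, regulators from -0.20 to 0.17 and complex I assembly from -0.18 to -0.043. Signs turned for Acr (-0.14 to 0.23), Atp5g2 (-0.35 to 0.018), Atp5l (-0.053 to 0.34), Cox4i1 (-0.051 to 0.31), Cox7a2 (-0.11 to 0.29), Cox7a2l (-0.53 to 0.20), Cox8a (-0.080 to 0.038), Cox8c (-0.23 to 0.53), Csf1r (-0.14 to 0.20), ND5 (-0.033 to 0.28), Ndufa12 (-0.46 to 0.20), Ndufa4 (-0.20 to 0.055), Ppargc1b (-0.92 to 3.91), Prdm16 (-1.09 to 0.28), Sdhb (-0.13 to 0.45), Sdhc (-0.34 to 0.067) and Vim (-0.29 to 0.049). A lone array was then taken to vary like the other genotype.

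The labels do not say that the replicate numbers pair the RNAs. Same-numbered arrays deviated together (correlation 0.69 over all genes and 0.62 over the members). With the replicate number as a block, limma again called 0 genes, with 982 at an unadjusted p under 0.05, none of them a member. Each number holds 1 array of each genotype, so a block cannot change the differences, and the members' median stays at -0.07.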
